A study of Mus musculus with 4 samples.

Results

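Promoter windows read by the shortest probes of the arrays were examined for p53 binding in R1E mouse embryonic stem cells. On arrays of this kind, probes over GC-rich DNA are made shorter so that all probes melt at a similar temperature, and probe length therefore stands in for GC content. A member was a window of 3 neighbouring probes that spanned at most 1000 bp and had a mean probe length of at most 46 bases, called a short-probe window here. This rule used probe positions and the scanner's outlier marks, and no measured ratio. It took 31347 of the 406114 windows (7.72%), 15467 on array design 1 and 15880 on array design 2. Probe sequences were not used here, so the GC content of the members was not measured.

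R1E cells, an established line of mouse embryonic stem cells, were grown for 8 h in medium with 1000 units/ml of leukaemia inhibitory factor, and those of the treated group received 0.5 µM adriamycin, a drug that damages DNA, while the others were left untreated. In chromatin immunoprecipitation on arrays (ChIP-chip), DNA precipitated with an antibody (IP, here 10 µg of antibody M19 against p53, labelled with Cy5) is compared with unprecipitated input DNA (labelled with Cy3). Cells were fixed in 1% formaldehyde, and IP and input DNA were both amplified by ligation-mediated PCR. Each condition was hybridised to 1 array of each of 2 designs, 4 arrays in all, with no swap of dyes. Design 1 covers chromosomes 1 to 8 and a part of 9, and design 2 the rest of 9 to 19 and X. The stated aim was to locate where p53 binds in undamaged cells and after DNA damage. The labels do not name an array with a control antibody, and with 1 array per condition and design there was no replicate, no test and no p-value. Array and condition cannot be told apart. Values are log2 of IP over input, minus the median of their array. Errors are standard deviations (SD) or interquartile ranges over probes or windows, which are not replicates.

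The transcription factor p53 is stabilised after DNA damage and binds as a tetramer to response elements built from a pair of short repeats, many of them in or near promoters of cell cycle arrest and cell death genes. Many mammalian promoters lie in CpG islands, GC-rich stretches that are mostly free of DNA methylation and in open chromatin when their genes are active. Probes of GC-rich DNA bind their targets strongly and also bind other fragments more readily, so the brightness of a spot depends on its sequence as well as on the amount of target. The files pair no probe with a gene, and the sources used here do not give the genome build of the coordinates, so windows are named by chromosome and position alone.

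The short probes were unevenly spread. Probes of 45 bases made up 16.8% of the 236817 probes kept on design 1 and 16.7% of the 236686 on design 2. Probes of 60 bases made up 41.2% and 41.7%. A few probes were shorter still, 16 and 101 of them with 44 bases. Of the 45-base probes, 58.1% and 59.2% lay in a short-probe window, and in 60.6% and 61.3% of short-probe windows every probe had at most 45 bases. Short-probe windows share probes with their neighbours. Merged where they overlapped or lay within 500 bp of each other, they formed 5855 and 5725 stretches with a median of 2 windows each and a median width of 627 bp and 645 bp. The widest held 20 windows over 4521 bp.

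Stretches were found in 52.5% of the 8310 tiles of design 1 and 53.3% of the 8090 tiles of design 2, a tile being a run of probes without a gap over 2000 bp. Within tiles 7000 to 8500 bp wide, they clustered at one distance from the ends. Of the short-probe windows in such tiles, 42.7% (design 1) and 42.6% (design 2) had their centre between 20% and 30% of the tile's width from its nearest end, and 34.7% and 33.9% between 30% and 40%. In the outermost 10% on each side, 2.47% and 2.64% of all windows were short-probe windows, against 15% and 15.3% between 20% and 30%. Chromosome 17 had the highest share of short-probe windows, 9.6% of its windows, and chromosome X the lowest, 5.3%.

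Log ratios were higher at 45 bases than at 60 bases in all 4 arrays and mostly rose from length to length between them. The few 44-base probes had medians of -0.09 untreated and 0.26 with adriamycin on design 1, below those of 45 bases. Those of design 2 had 0.46 and 0.68. The median over all 60-base probes was -0.21 untreated and -0.23 with adriamycin for design 1, and for design 2 it was -0.28 and -0.31. The median over all 45-base probes was 0.30 untreated (interquartile range over probes -0.14 to 0.85) and 0.50 with adriamycin (0.07 to 1.02) on design 1. On design 2 it was 0.41 (-0.06 to 0.98) and 0.66 (0.26 to 1.19). In 3 of the 4 arrays this interquartile range was wider than the whole step from 60 to 45 bases, the exception being the adriamycin array of design 2. With adriamycin, the step from 46 to 45 bases was the largest between neighbouring lengths from 45 to 60, where the median went from 0.22 to 0.50 on design 1 and from 0.34 to 0.66 on design 2.

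**Figure D1:**
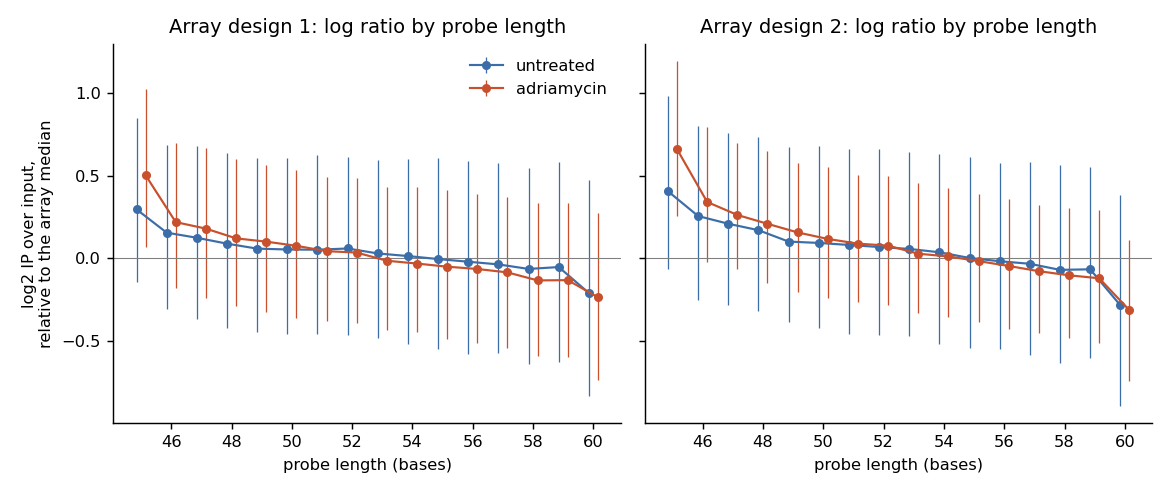
Median log2 IP over input, minus the array median, of all probes of each length from 45 to 60 bases; bars are interquartile ranges over probes. Medians fall from 0.30 (untreated) and 0.50 (adriamycin) at 45 bases to -0.21 and -0.23 at 60 bases on design 1, and from 0.41 and 0.66 to -0.28 and -0.31 on design 2.

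Short-probe windows lay above the array median in every array, and further above it with adriamycin. On design 1 their median was 0.40 untreated (interquartile range over windows 0.02 to 0.96) and 0.69 with adriamycin (0.31 to 1.15). On design 2 it was 0.52 (0.14 to 1.08) and 0.88 (0.49 to 1.34). The medians over all windows were within 0.02 of 0 in all 4 arrays. The upper quartile of all windows lay at 0.45 and 0.42 on design 1, and at 0.47 and 0.46 on design 2. The interquartile ranges of short-probe windows and all windows thus overlapped in 3 of the 4 arrays, and in the adriamycin array of design 2 they did not. The levels depended on the processing: with background corrected by normexp, a model-based subtraction, the design 1 medians became 0.012 and -0.21 and those of design 2 became -0.34 and 0.57, and with extreme local backgrounds replaced first they were 0.012 and 0.14, and 0.11 and 0.58.

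Both channels were bright in these windows, and the IP channel more so. Relative to the array median of the channel, short-probe windows of design 1 had a median log2 input of 1.63 untreated and 1.60 with adriamycin. Those of design 2 had 1.59 and 1.54. The median log2 IP signal was 2.23 and 2.45 on design 1, and 2.31 and 2.53 on design 2. All spots of all arrays of the design were well above background in 99.8% and 99.9% of short-probe windows, against 82.5% and 91% of all windows. Saturated spots occurred in 0 short-probe windows of design 1 and 11 of design 2.

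Since the input was brighter here, windows of like input were also set beside each other, a comparison chosen after the values were seen. Of the windows with longer probes, those with an input in the interquartile range of the short-probe windows had medians of 0.03 (untreated) and 0.29 (adriamycin) for design 1, and 0.07 and 0.40 for design 2. The short-probe windows in that range had medians of 0.42 and 0.69, and of 0.54 and 0.87. Relative to the array median, short-probe windows in that range lay above windows with longer probes by about the same amount in both conditions. Set against the median of all probes of the same length, they had 0.14 and 0.23 on design 1, against -0.06 and 0.13. On design 2 they had 0.16 and 0.25, against -0.06 and 0.18. On that scale the gap was thus smaller with adriamycin. The inputs were not fully matched, as the untreated median on design 1 was 1.63 for short-probe windows and 1.45 for the others. Enriched windows, as defined next, made up 23.5% and 28.8% of the short-probe windows in that range on design 1, and 26.2% and 38.2% on design 2, against 11.2%, 14.9%, 11.4% and 18.3% of those with longer probes.

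A window was called enriched when its mean was at least 1, that is 2-fold above the median of the array, with 2 or all of its 3 probes at 1 or more. In the untreated array of design 1, 3428 short-probe windows were enriched (22.2%), against 9.27% of all windows. With adriamycin there were 4412 (28.5%), against 9.04%. On design 2 there were 4002 untreated (25.2%), against 9.6% of all windows, and 6165 with adriamycin (38.8%), against 10.5%. The same rule with the sign turned called 24 (0.155%) and 6 (0.0388%) short-probe windows depleted on design 1, and 10 (0.063%) and 0 on design 2. Of all windows, 3.6% and 2.28% were depleted on design 1 and 3.92% and 2.06% on design 2. With normexp and extreme local backgrounds replaced, fewer short-probe windows were enriched over both designs, 12.3% untreated and 15.7% with adriamycin, against 3.79% and 4.71% of all windows. Normexp was run with an offset of 50 added to both channels, and the part of this offset in the lower shares was not tested.

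Relative to the array median, the share of enriched windows was lower in each longer class of mean probe length. With adriamycin on design 2 it was 44.4% for windows of at most 45 bases on average, 30% above 45 and up to 46, 21.7% above 46 and up to 48, and 2.03% above 59. At the length limit itself the values were close on both sides. Windows of mean length 46, just inside, had medians of 0.24 and 0.46 on design 1, and 0.38 and 0.62 on design 2. Windows of mean length 46.33, just outside, had 0.22 and 0.42, and 0.32 and 0.52.

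**Figure D2:**
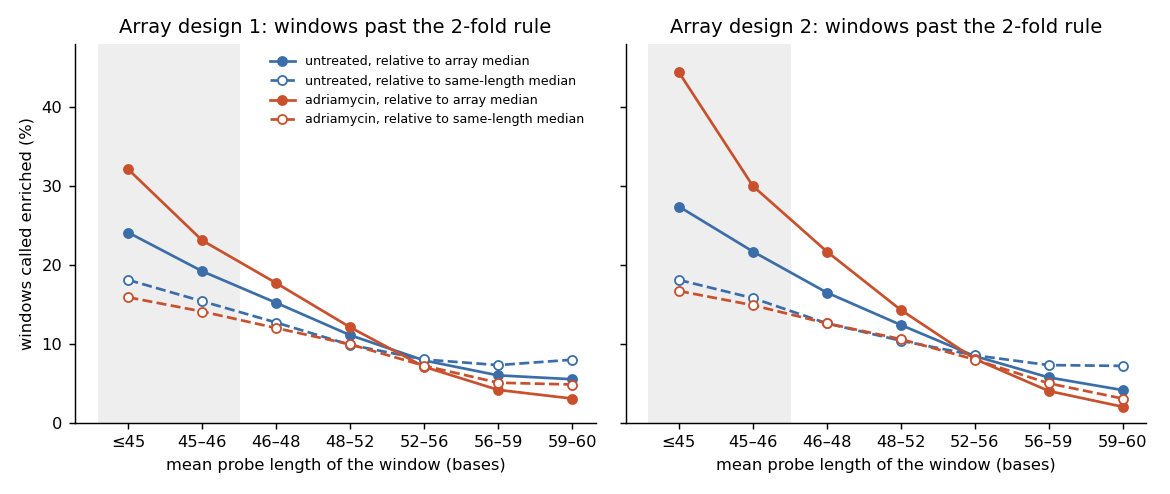
Share of 3-probe windows called enriched by mean probe length, with log ratios relative to the array median (filled points) or to the median of all probes of the same length on that array (open points); short-probe windows are shaded. On design 2 the share at 45 bases or less is 44.4% with adriamycin relative to the array median, and 16.7% relative to probes of the same length.

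Each probe was also set against the median of all probes of its own length on the same array. Since 58.1% and 59.2% of the 45-base probes lie in short-probe windows, this median is set in large part by the members themselves, and centring on it takes away much of any shift they share. The median of short-probe windows was then 0.12 untreated and 0.22 with adriamycin for design 1, and 0.14 and 0.26 for design 2. Enriched windows numbered 2633 (17%) and 2345 (15.2%) on design 1, against 9.24% and 7.78% of all windows. On design 2 they numbered 2735 (17.2%) and 2541 (16%), against 9.32% and 7.78%. On this scale 130 (0.84%) and 79 (0.511%) short-probe windows of design 1 were depleted, against 2.68% and 1.43% of all windows. On design 2, 142 (0.894%) and 33 (0.208%) were, against 2.49% and 0.795%. The order of the conditions turned as well, with fewer enriched short-probe windows in the adriamycin array than in the untreated array on both designs. With loess, over both designs together, it turned too, at 16.6% untreated and 14.9% with adriamycin, against 8.86% and 6.35% of all windows.

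The surroundings of a 45-base probe went with its level. In short-probe windows, 45-base probes had medians of 0.41 (untreated) and 0.68 (adriamycin) for design 1, and 0.53 and 0.86 for design 2. Those outside such windows, in tiles that held a stretch elsewhere, had 0.15 and 0.27, and 0.21 and 0.37. Those in tiles without a stretch had 0.20 and 0.32, and 0.28 and 0.46. Probes of the same length thus differed by where they lay. Their input differed as well, at medians of 1.68 (untreated, design 1) and 1.63 (untreated, design 2) inside against 1.11 and 1.11 outside in tiles with a stretch, and the part of the input in this was not tested.

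Probes of 60 bases, which are too long for any short-probe window, were also higher close to a stretch. Relative to the median of all 60-base probes, those within 250 bp of a stretch had a median of 0.19 untreated (interquartile range over probes -0.34 to 0.81) and 0.33 with adriamycin (-0.16 to 0.86) on design 1. On design 2 they had 0.21 (-0.32 to 0.89) and 0.45 (0.06 to 0.97). At 1000 to 2000 bp from a stretch the design 1 medians were -0.09 and -0.10, and those of design 2 were -0.07 and -0.06. In tiles without a stretch they were 0.04 and 0.04, and 0.03 and -0.01. Probes of 50 to 59 bases, set against their own lengths, showed the same order, from 0.16 and 0.29 within 250 bp to -0.05 and -0.08 at 1000 to 2000 bp on design 1. On design 2 they went from 0.19 and 0.33 to -0.06 and -0.08. The excess thus extended beyond the short probes themselves, by less than the interquartile range over probes.

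**Figure D3:**
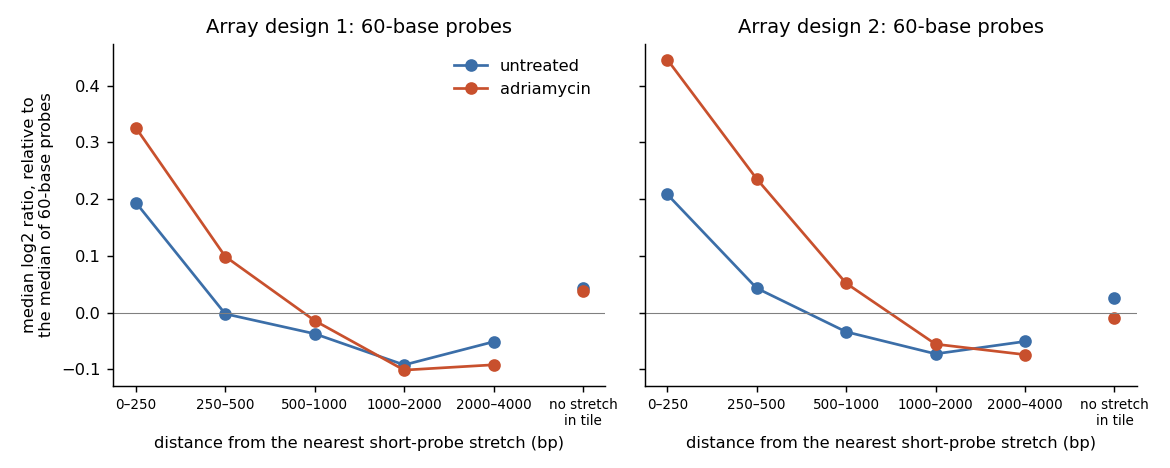
Median log2 ratio of 60-base probes relative to the median of all 60-base probes on the array, by distance from the nearest short-probe stretch in the tile, and in tiles without a stretch. Medians are 0.19 (untreated) and 0.33 (adriamycin) within 250 bp on design 1 and 0.21 and 0.45 on design 2, and lie below 0 at 1000 to 4000 bp.

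Stretches of several windows were higher than those of a single window. The 4047 stretches of a single window had median levels of 0.27 untreated and 0.52 with adriamycin, each stretch counted as the mean over its probes. The 512 stretches of 7 to 9 windows had 0.70 and 0.94, with a wide spread over stretches (interquartile range 0.26 to 1.66 untreated and 0.60 to 1.58 with adriamycin). The 143 stretches of 10 or more windows had 0.60 and 0.97. Relative to probes of the same length, the medians went from -0.04 and 0.02 for a single window to 0.35 and 0.40 at 7 to 9 windows, and were 0.28 and 0.37 at 10 or more.

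The largest stretches, taken for their number of windows and not for their values, showed that size and level are different things. Of the 6 with most windows, only that on chromosome 2 from 25398701 to 25401981 was enriched along its whole length, with all 16 windows enriched in both arrays. Its 18 probes averaged 2.88 ± 0.73 (SD over probes) untreated, with a range of 1.23 to 3.81, and 2.51 ± 0.69 with adriamycin, with a range of 0.93 to 3.25. The widest stretch of all, on chromosome 17 from 33728773 to 33733293, averaged 0.56 ± 0.73 over 26 probes untreated and 1.09 ± 0.55 with adriamycin. It was enriched in 3 and 6 of its 20 windows. The other 4 held no enriched window in either array.

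Those 4 averaged near the array median. The stretch on chromosome 7 from 45736111 to 45739349 had -0.23 ± 0.92 untreated and 0.17 ± 0.64 with adriamycin over 20 probes. The stretch on chromosome 15 from 76363559 to 76367804 had -0.04 ± 0.66 and 0.29 ± 0.42 over 23 probes. The stretch on chromosome 19 from 4612480 to 4615695 had 0.19 ± 0.54 and 0.62 ± 0.38, and that on chromosome 9 from 121639104 to 121642060 had -0.14 ± 0.74 and 0.40 ± 0.84, each over 17 probes. In all 4 the adriamycin mean was the higher one, by less than the SD over probes of the untreated array. Relative to probes of the same length, all 4 lay below 0 in both arrays.

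Short-probe windows gave more alike values in both arrays of a design than windows of longer probes. Over windows, untreated and adriamycin values correlated with r = 0.88 on design 1 (15467 windows) and 0.87 on design 2 (15880 windows), against 0.71 and 0.73 over all windows and 0.46 and 0.45 over windows with a mean length above 59. Windows with a mean length above 46 and up to 48 came close, at 0.84 on both designs, so short-probe windows were not set apart in this. Windows overlap and both arrays share the same probes, so these are descriptions. The SD of the difference between conditions was 0.46 and 0.47 over short-probe windows and 0.62 over all windows on both designs. Above 46 and up to 48 bases it was 0.49 and 0.50. Steps from a probe to its neighbour within a short-probe window also recurred, with r = 0.57 and 0.50 between both arrays, against 0.24 and 0.23 over all windows. Above 46 and up to 48 bases this r was 0.44 and 0.39. Uneven values inside a short-probe window were thus in part the same in both arrays. Of the short-probe windows enriched untreated, 87.4% on design 1 and 91.1% on design 2 were enriched with adriamycin too, and of those enriched with adriamycin 67.9% and 59.2% were enriched untreated. Over all windows the shares were 67.2% and 71.1% of those enriched untreated, and 68.8% and 64.9% of those enriched with adriamycin. Above 46 and up to 48 bases they were 82.9% and 85.2%, and 71.4% and 64.7%, in the same order. Relative to the array median, the latter share was thus not higher in short-probe windows. Relative to probes of the same length it was higher, at 85.7% and 82.3% against 71.6% and 73% over all windows. Above 46 and up to 48 bases it was 81.4% and 79.8% on that scale, so short-probe windows were again not set apart.

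The second comparison was adriamycin against untreated. Most short-probe windows were slightly higher in the adriamycin arrays, and few by as much as 2-fold. The median difference, adriamycin minus untreated, was 0.21 on design 1 (interquartile range over windows -0.10 to 0.50) and 0.28 on design 2 (-0.05 to 0.57), against 0.02 and 0.06 over all windows. It was above 0 in 67.5% and 71.8% of short-probe windows and in 51.6% and 53.9% of all windows. On design 1, 529 short-probe windows were higher with adriamycin by at least 1 (3.42%), against 4.41% of all windows, and 116 were lower by at least 1 (0.75%), against 5.89%. On design 2, 756 were higher (4.76%), against 4.11%, and 89 lower (0.56%), against 5.66%. Rises were about as frequent as over all windows and falls were much rarer. Falls were also rare above 46 and up to 48 bases, at 1.55% and 1.23%, with rises at 3.48% and 3.98%. Above 59 bases falls made up 9.76% and 11.1%, so their share went with probe length and was not particular to short-probe windows. The median difference was -0.27 on design 1 with normexp and 0.88 on design 2, and with extreme local backgrounds replaced first it was 0.081 and 0.40.

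Probes of 45 bases outside short-probe windows leaned towards adriamycin too, and less so. Their median difference was 0.12 in tiles with a stretch and 0.14 in tiles without on design 1, against 0.22 inside short-probe windows, and 0.19 and 0.24 against 0.30 on design 2. Relative to probes of the same length, the median difference was 0.02 on design 1 and 0.05 on design 2, and 237 and 278 short-probe windows were higher (1.53% and 1.75%) against 260 and 278 lower (1.68% and 1.75%). Over all windows on that scale 4.26% and 3.64% were higher and 5.83% and 5.76% lower. Higher windows made up 86.2% of all short-probe windows that differed by at least 1 relative to the array median, and 48.9% relative to probes of the same length. Over all windows these shares were 42.4% and 40.5%. By channel, relative to the array medians, the IP signal of short-probe windows differed by a median log2 of 0.18 and 0.17, and their input by -0.03 and -0.06. Every chromosome showed the lean, with median differences between 0.17 and 0.31.

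**Figure D4:**
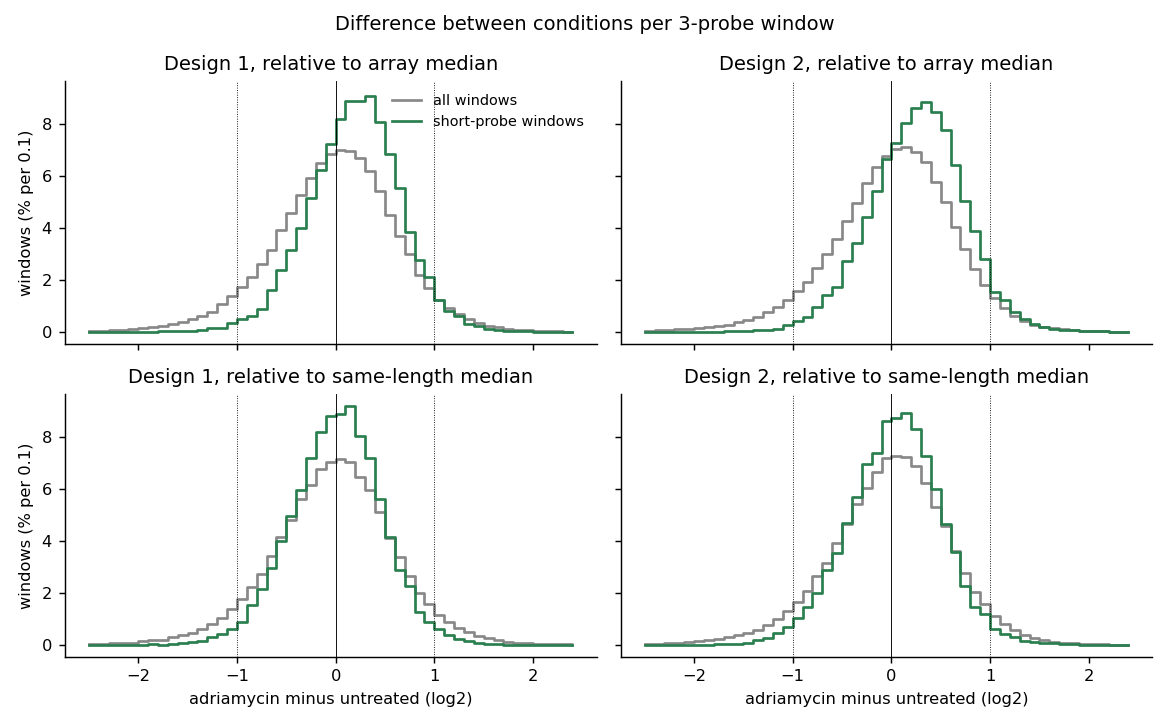
Distribution over windows of the log2 difference, adriamycin minus untreated, in bins of 0.1, for short-probe windows (green) and all windows (grey); dotted lines mark a 2-fold difference. Relative to the array median the short-probe windows centre on 0.21 (design 1) and 0.28 (design 2), and relative to probes of the same length on 0.02 and 0.05.

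The difference depended on the level of the window, taken as the mean of both arrays. Short-probe windows with a level between 0 and 0.5 were higher with adriamycin, by a median of 0.30 on design 1 and 0.36 on design 2. Between 2 and 3 the median difference was -0.27 and -0.19, and at 3 or more it was -0.33 (434 windows) and -0.37 (614 windows). Relative to the array median, strongly enriched windows with longer probes did the same, with -0.28 and -0.36 at 3 or more. Between 0 and 0.5, windows with longer probes had -0.04 and -0.04. On the same-length scale, short-probe windows at 3 or more had -0.50 and -0.74, and those with longer probes -0.30 and -0.41. Between 2 and 3 on that scale they had -0.52 and -0.50, against -0.26 and -0.25. The SD of all log ratios was also smaller in the adriamycin arrays, 0.94 against 1.06 on design 1 and 0.91 against 1.08 on design 2, and its part in this pattern was not tested. At a threshold of 3, 496 and 647 short-probe windows (3.21% and 4.07%) were enriched untreated and 302 and 464 (1.95% and 2.92%) with adriamycin, against 1.33% and 1.37% of all windows untreated and 1.01% and 1.06% with adriamycin. Over all windows the count was thus lower with adriamycin too.

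Among stretches, 2701 of the 11578 that had a window without a saturated spot were enriched in at least 1 window untreated and 4122 with adriamycin, and 2411 in both. Set against probes of their own length, 1844 were enriched untreated and 1782 with adriamycin, so that the order of the conditions turned. Of the 4412 enriched in at least 1 array, the best window was higher with adriamycin by at least 1 in 376 (8.52%) and lower in 69 (1.56%). The best window is the one with the highest mean over both arrays. All windows of the stretch were enriched in both arrays in 1482 stretches, and in 307 the best window was at 3 or more in both. Stretches were formed from short-probe windows only, so these counts and shares have no counterpart over other windows. Shares of stretches also cannot be set against shares of single windows, as a stretch can hold several windows.

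The highest short-probe stretches were chosen for the mean of both arrays in their best window. They were high in both conditions, which follows in large part from that choice and is therefore a description. The highest, on chromosome 1 from 78079595 to 78080145, had 3 probes at 4.56, 4.95 and 5.73 untreated and at 4.20, 5.31 and 4.28 with adriamycin. Its means were 5.08 ± 0.60 (SD over 3 probes) and 4.60 ± 0.62, which overlap. On chromosome 12 from 57614361 to 57615303, the probes of the best window had 5.26, 4.70 and 5.07 untreated and 4.33, 3.72 and 4.19 with adriamycin, so that the 3 probes differed by -0.93, -0.98 and -0.89. On chromosome 9, the best window of the stretch from 91162404 to 91163308 had 5.07 ± 0.85 and 4.30 ± 0.45, and that of the stretch from 69557991 to 69559851 had 4.85 ± 0.28 and 4.18 ± 0.25. The latter ranges did not overlap, as the lowest untreated probe was at 4.60 and the highest adriamycin probe at 4.44.

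A pair of stretches close to each other on chromosome 15 were alike. That from 102782649 to 102783207 had 4.96 ± 0.14 untreated and 4.04 ± 0.34 with adriamycin, and that from 102805319 to 102805660 had 4.77 ± 0.10 and 4.23 ± 0.28. In both, every adriamycin probe lay below every untreated probe. On chromosome 7, 2 of the 8 highest stretches held probes of very unequal level that kept their order in both arrays. In the stretch from 45333878 to 45335031, the probes of the best window had 4.92, 5.99 and 2.26 untreated and 5.38, 6.58 and 2.66 with adriamycin. In the stretch from 24592830 to 24593897 they had 3.23, 4.80 and 4.97, and 3.58, 5.06 and 5.85. These were the only ones of the 8 with a higher mean in the adriamycin array, by 0.48 ± 0.10 and 0.50 ± 0.34 (SD over 3 probes). Relative to the array median, none of the 8 differed 2-fold, their differences running from -0.93 to 0.50. On the same-length scale 3 of them fell by more than 2-fold, with differences of -1.03 on chromosome 9 from 91162404, -1.13 on chromosome 12 and -1.10 on chromosome 15 from 102782649. Relative to probes of the same length the 4 highest stretches came from these 8, on chromosomes 1, 7 (both) and 12.

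The largest rises with adriamycin started near the median of short-probe windows. On chromosome 7 from 18249348 to 18251866, the probes of the best window went from 1.03, 0.31 and 0.30 untreated to 3.09, 3.41 and 2.01 with adriamycin, and the mean from 0.55 ± 0.41 to 2.84 ± 0.73, a 4.89-fold rise. Its IP signal rose by 3.10 and its input by 0.80. The stretch spans 2519 bp with 8 windows, of which 0 were enriched untreated and 2 with adriamycin, so the rise covered a part of it. On chromosome 15, the stretch from 76532546 to 76533010 went from 0.72 ± 0.92 to 2.85 ± 0.51 (4.38-fold) and that from 101364387 to 101364727 from 0.35 ± 0.22 to 2.38 ± 0.78 (4.08-fold). In both the IP signal rose by more than the ratio, by 2.59 and 2.67, and the input was higher too, by 0.50 and 0.69.

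On chromosome 4 from 152817632 to 152819385, the best window went from 0.65 ± 0.65 to 2.65 ± 0.81 (4.02-fold), and 5 of the 6 windows were enriched with adriamycin against 0 untreated. On chromosome 10 from 127613823 to 127614185, the mean went from 0.31 ± 0.40 to 2.30 ± 0.69 (3.98-fold). On chromosome 14, the best window of the stretch from 69312053 to 69313190 had 0.43, 0.69 and 0.63 untreated and 2.66, 2.42 and 2.51 with adriamycin, the most even of these rises (1.95 ± 0.25, SD over 3 probes, 3.86-fold). Its IP signal rose by 1.95 with the input almost level, at 0.04. These 6 stretches were chosen for their difference, which is therefore a description. In each of the 6 best windows the lowest adriamycin probe lay above the highest untreated probe. Relative to probes of the same length the 6 rises were 1.70 to 2.14.

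The largest falls ran from -1.72 to -1.58 relative to the array median and from -1.97 to -1.72 relative to probes of the same length. With loess they ran from -1.97 to -1.71, and the 6 rises from 1.40 to 1.58. With a shared input, and likewise with normexp, 2 of the 6 falls were still at least 2-fold. On chromosome 17 from 33808726 to 33809025, the probes had 1.97, 2.42 and 2.56 untreated and 1.01, 0.67 and 0.11 with adriamycin, a mean difference of -1.72 ± 0.75 (SD over 3 probes) with an IP difference of -1.34 and an input difference of 0.42. On chromosome 2 from 180820994 to 180821438, the best window went from 2.98 ± 0.51 to 1.33 ± 0.51, and its 3 probes fell almost equally, by 1.64, 1.63 and 1.69, with an IP difference of -1.21 and an input difference of 0.43. In these 2 falls the IP signal moved more than the input.

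In the other 4 falls, chosen like the rises for their difference, the input moved more than the IP signal. On chromosome 6 from 83126882 to 83127531, the mean went from 3.13 ± 0.69 to 1.45 ± 0.51, with an IP difference of -0.78 and an input difference of 0.90. On chromosome 15 from 97830261 to 97830703, the best window went from 4.48 ± 0.83 to 2.91 ± 0.51 and stayed enriched, with an IP difference of -0.25 and an input difference of 1.37, and its difference was 0.11 with normexp. On chromosome 9 from 108811925 to 108812906, it went from 1.24 ± 0.76 to -0.36 ± 0.12, with an IP difference of -0.78 and an input difference of 0.87. On chromosome X from 44351454 to 44351956, it went from 1.92 ± 1.07 to 0.33 ± 0.35 while the IP signal was higher by 0.29 and the input by 1.92. Its untreated input was at the 8.83rd percentile of all windows of design 2, far below the median of short-probe windows. With the mean input of both arrays used for both ratios, this window was higher with adriamycin by 0.30 in place of lower.

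**Figure D5:**
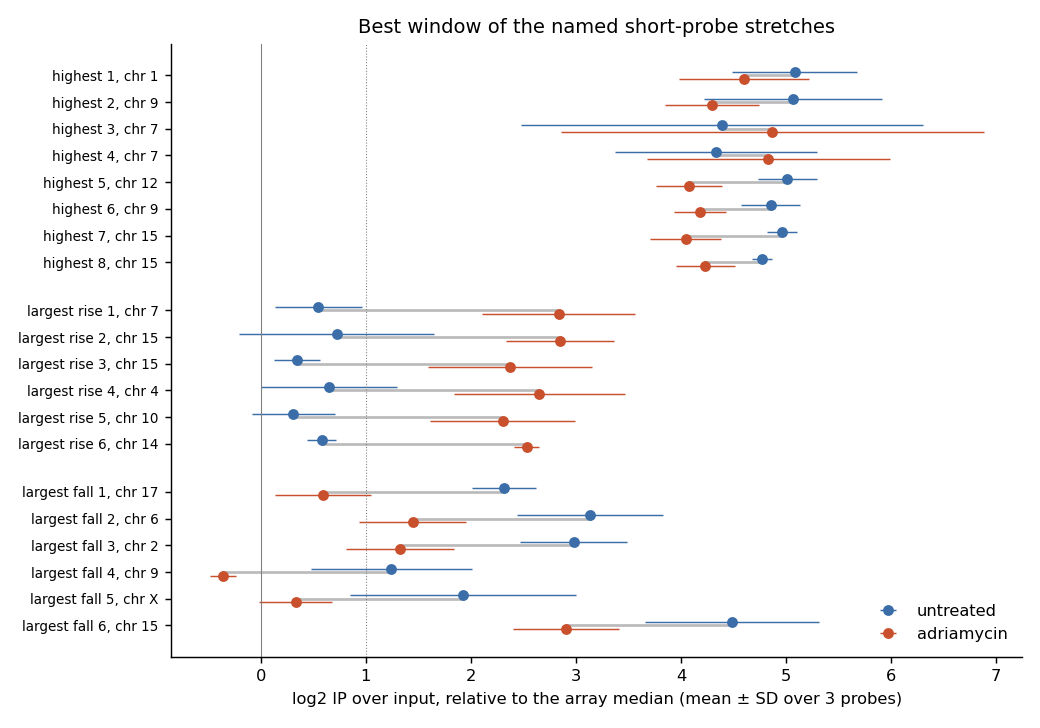
Best window of the 8 highest short-probe stretches, the 6 largest rises and the 6 largest falls: mean log2 ratio relative to the array median, with SD over 3 probes as bars, in the untreated and the adriamycin array of the design. The highest lie between 4.04 and 5.08 in both arrays, and the rises lie between 0.31 and 0.72 untreated and between 2.30 and 2.85 with adriamycin.

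Levels differed between chromosomes, and on each design the same chromosome was lowest and the same highest in both conditions. On design 1 the medians of short-probe windows ran from 0.27 untreated and 0.53 with adriamycin on chromosome 7 to 0.56 and 0.84 on chromosome 3. On design 2 they ran from 0.38 untreated on chromosome 17, where 31.1% of short-probe windows were enriched with adriamycin, to 0.77 on chromosome 18, where 52.9% were. The 2 lowest chromosomes held larger shares of short-probe windows than the 2 highest, 8.42% and 9.6% of their windows against 5.63% and 6.32%. On chromosome X the 799 short-probe windows had medians of 0.66 and 0.92, with a dimmer input than on the autosomes of design 2 (0.95 untreated, against 1.55 to 1.74). Short-probe windows on chromosome X were higher with adriamycin by at least 1 in 6.13% and lower in 1.38%. Over all short-probe windows of design 2 these shares were 4.76% and 0.56%. The share of higher windows was not particular to chromosome X, as it was 6.49% on chromosome 16.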

How the data were processed

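Probe intensities were read from the 4 arrays' scanner files, made with Agilent Feature Extraction 10.1.1.1 per the file headers. For the processed intensities background was subtracted and the dyes were balanced linearly, without lowess, per the file headers. The authors' deposited table holds log2 ratios of IP over input, which equal background-subtracted spot medians within 1e-06 wherever filled. The deposited marks for outliers, saturation and signal above background were used as filters.

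Control spots were left out, and so were 55 and 84 probes marked as outliers on at least 1 array of their design. Each value was the log2 ratio of processed intensities minus the array median, or minus the median of probes of the same length on that array. Probe length is the distance between the ends in the probe's position (113 and 308 probes are written end first). Windows held 3 neighbouring probes within 1000 bp with a mean length of at most 46 bases. Enriched windows had a mean of at least 1 with at least 2 probes at 1 or more, and a change was a difference of at least 1. Stretches merged windows within 500 bp.

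Named stretches were the 6 with most windows, the 8 with the highest best window (mean of both arrays, no saturated spot), the 6 largest rises and 6 largest falls of the best window among stretches enriched in at least 1 array whose spots were above background, and the 4 highest relative to the same length. Members and lists were chosen with earlier results of these data known. There was no replicate, so no test was made, and precision is limited by having so few arrays. The rules were run on simulated data with strong added sites and independent noise. This checked the code, and not calls near the threshold. Alternatives were other centring, length limits, window sizes and thresholds, the deposited table, a shared input, equal spread, filters on marks, and normexp and loess in limma 3.58.1 (R 4.3.3). Normexp had been planned on mean intensities and used spot medians, which the deposited files hold, with an offset of 50. Other tools were Python 3.11.15, NumPy 2.4.6, pandas 2.3.3 and matplotlib 3.10.9. Gene names and probe sequences were not used here.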

Additional observations from a re-analysis of the deposited data

How the results depend on the processing

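No paired analysis was possible because there was only 1 array of a design in each condition. Medians below are in the order untreated, adriamycin and difference on design 1, then on design 2, and counts are in the order enriched untreated, enriched with adriamycin, higher and lower with adriamycin, over both designs. As reported they were 0.40, 0.69, 0.21, 0.52, 0.88 and 0.28, and 7430, 10577, 1285 and 205. Relative to the same length they were 0.12, 0.22, 0.020, 0.14, 0.26 and 0.047, and 5368, 4886, 515 and 538. A mean length of at most 45 gave 0.47, 0.78, 0.23, 0.59, 0.98 and 0.31, with 4928 enriched untreated, 786 higher and 89 lower. A limit of 48 gave 0.29, 0.53, 0.17, 0.40, 0.70 and 0.23, and 11883, 16101, 2332 and 596. The deposited table gave 0.53, 0.77, 0.16, 0.64, 1.02 and 0.29, with 136 lower. Loess gave 0.12, 0.20, 0.032, 0.19, 0.27 and 0.050, and 5214, 4679, 419 and 533. The order of the conditions in the enriched counts thus turned with loess, as it did relative to the same length. Normexp turned 3 medians, giving 0.012, -0.21, -0.27, -0.34, 0.57 and 0.88, with 3023, 4219 and 5915 enriched untreated, enriched with adriamycin and higher. Local IP backgrounds over 2 times the array median were read at 33 spots of the adriamycin array of design 1. On design 2 they were read at 16 spots of the untreated and 8 of the adriamycin array. Local input backgrounds over that limit were read at 7, 17 and 2 spots of these arrays, in the same order. With such backgrounds replaced, an alternative chosen after seeing the data, no median turned, at 0.012, 0.14, 0.081, 0.11, 0.58 and 0.40, with 3849, 4936, 847 and 19. Windows of 5 probes gave 0.48, 0.75, 0.18, 0.57, 0.94 and 0.26, and 4060, 5475, 320 and 34. With spots above background only, levels were 0.38 and 0.67 on design 1 and 0.86 with adriamycin on design 2. A shared input gave differences of 0.15 and 0.18, with 106 lower. Equal spread gave 2057 higher and 72 lower. A threshold of 2 gave 3153 and 2987 enriched, and a 1.5-fold change 6698 higher and 1395 lower. Enriched shares of short-probe windows, untreated and with adriamycin, follow with those of all windows in brackets. As reported they were 23.7% and 33.7% (9.43% and 9.78%). Relative to the same length they were 17.1% and 15.6% (9.28% and 7.78%), and with loess 16.6% and 14.9% (8.86% and 6.35%). Limits of 45 and 48 gave 25.8% and 38.3%, and 20.0% and 27.1%, with all windows unchanged. Where not shown here, the cause was not tested.

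Higher windows made up 86.2% of changed short-probe windows as reported, 48.9% relative to the same length, 44% with loess and 89.2% to 97.8% with the deposited table, a shared input, 5 probes, equal spread and both forms of normexp. Over all windows this share was 42.4% as reported, 40.5% relative to the same length and 42.2% with loess. With loess it was thus close to the 44% of short-probe windows. It was 51.6% with the deposited table, 52.4% with a shared input, 38.8% with 5 probes and 44.8% with equal spread. With both forms of normexp it was 94.1% and 97.4%, again close to that of short-probe windows. The fall on chromosome 15 from 97830261 became 0.11 with normexp, and that on chromosome X from 44351454 became 0.30 with a shared input. Of the 6 falls, 2 stayed at -1 or lower with a shared input, 2 with normexp and 3 with extreme backgrounds replaced, and 6 with loess. The 8 highest stretches stayed at 3.09 or more and the 6 rises at 1.14 or more in the alternatives run for named stretches.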
